A study of Mus musculus with 24 samples.

Results

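The comparison described here is the difference in the response to a change of medium between the 2 transfected lines, TO and OT, of N1E-115, a mouse neuroblastoma cell line used as a model of neurons. It was chosen by sample title and rests on 16 samples of the 24 in the study, 4 in each of the groups TO-d, TO-p, OT-d and OT-p. TO cells carry a fusion of transcobalamin, the plasma carrier of cobalamin (vitamin B12), to oleosin, a protein that anchors in lipid, with transcobalamin at the N-terminal end, and the design text gives this fusion a high affinity for cobalamin. OT cells carry the C-terminal fusion, for which no cobalamin binding was detectable. The letter d marks cells in differentiation medium with 2.5% foetal calf serum and 1.25% DMSO, and p marks cells in proliferation medium with 10% serum. The other 8 samples, untransfected cells in the same media (WT-d and WT-p), entered the fit and not the contrast. Both lines were transfected cells of 1 parental line, and the labels do not say whether a line was 1 clone or a pool, so a difference between the constructs and a difference between the selected cells cannot be told apart.

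Cobalamin is the cofactor of methionine synthase, which takes a methyl group from folate to remake methionine, and of methylmalonyl-CoA mutase in mitochondria. Neuroblastoma cells leave the cell cycle and extend neurites when serum is lowered and DMSO is added, and they then express more neuronal cytoskeleton, secretory granule and transmitter genes. The quantity reported below is the TO response (TO-d minus TO-p) minus the OT response (OT-d minus OT-p), in log2 units and fitted for each gene with limma. A gene is called higher where this difference is above 0, and lower where it is below 0, where p, adjusted by Benjamini and Hochberg's method over 16240 genes, is under 0.05. A gene can be higher because it rose more or because it fell less in TO. Levels are normalized log2 intensities, errors of differences are standard errors, and n is 4 in each group unless stated. In each of the 4 groups 2 of the 4 samples share a number in their labels, 1 of them with an added b, and the labels do not say whether such a pair came from 1 culture. Statements on the order and overlap of groups concern the 16 samples and leave out WT unless it is named. RNA was labelled with 2 dyes on 12 arrays, and the number of arrays limits the precision. The 14 sympathetic neuroblast markers were all measured above background, with the noradrenaline enzyme gene Th at 11.69 or more in each of the 16 samples.

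Of the 16 samples, TO-p replicate 4 stood apart. The SD over genes of its deviation from the other TO-p samples was 0.513, against 0.111 to 0.261 for the other 15 samples. Across genes this deviation correlated at 0.788 with the difference between OT-d and the other TO-p samples, with a slope of 0.583. It correlated at 0.594 with the same difference for TO-d and at 0.587 with that for WT-d. This sample shared its array, in the other dye, with OT-d replicate 2. Its median signal of 81.8 and its share of spots well above background, 56.9%, lay inside the range of the 16 samples, which was 66.8 to 166 and 54.3 to 65.9%. Whether a mixed, mislabelled or partly differentiated sample or the shared array lies behind this was not tested. Every difference below is therefore given with the sample and again, as "without replicate 4", from the same fit without TO-p replicate 4.

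**Figure D1:**
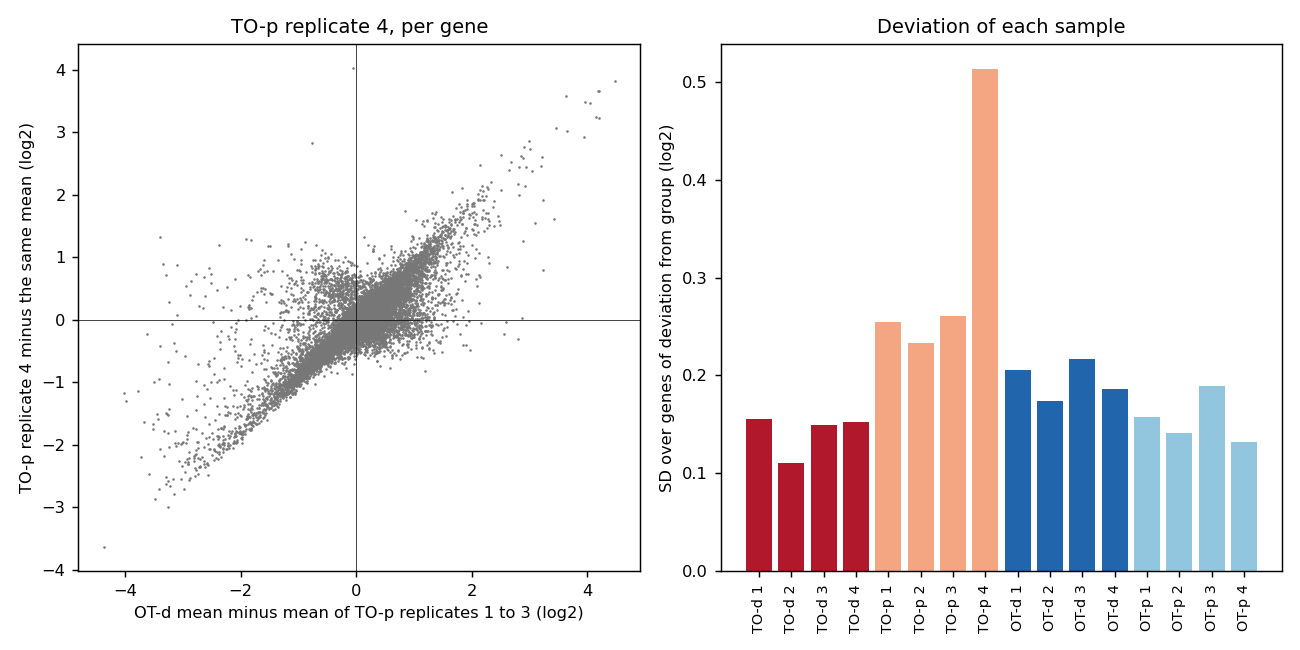
Left, for each gene tested, the deviation of TO-p replicate 4 from the mean of TO-p replicates 1 to 3 against the deviation of the OT-d mean from the same mean, both in log2 units. Right, the SD over genes of the deviation of each of the 16 samples from the other samples of its group, where bars are single samples and TO-p replicate 4 stands at 0.513.

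The responses of the 2 lines differed at 5515 genes, 34% of those tested. Of these, 2394 genes (14.7%) were higher and 3121 (19.2%) lower, and the counts of the gene lists below are to be read against these shares, since no list was tested. Without replicate 4 the counts were 2652 higher (16.3%) and 3692 lower (22.7%), and 5320 of the 5515 genes were called in the same direction in both fits, none in the opposite one. Differences over 2-fold were held by 319 higher and 789 lower genes, and differences over 4-fold by 15 and 87. The median difference over all genes tested was -0.04, with quartiles at -0.33 and 0.23.

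Most of these differences came from a larger response in OT. Among the called genes, the OT response was the larger in size at 4633 (84%), and without replicate 4 at 4922 of 6344 (77.6%), while over all genes tested the share was 69.9%. The median size of the response among called genes was 0.275 in TO and 0.745 in OT. Without replicate 4 it was 0.332 in TO and 0.695 in OT, among the genes called in that fit. Only the OT response passed its own test at 1211 of the higher and 1464 of the lower genes, and only the TO response at 253 and 288. Both responses passed with the same sign at 737 higher and 1089 lower genes. Both passed with opposite signs at 155 higher and 238 lower genes, and at 166 and 359 without replicate 4, so the second count depended on that sample. Without TO-d replicate 4 they were 99 and 156, and with samples of a shared number averaged 90 and 121. With all samples, the share of all genes called between the media was 40.1% in TO and 62.1% in OT.

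**Figure D2:**
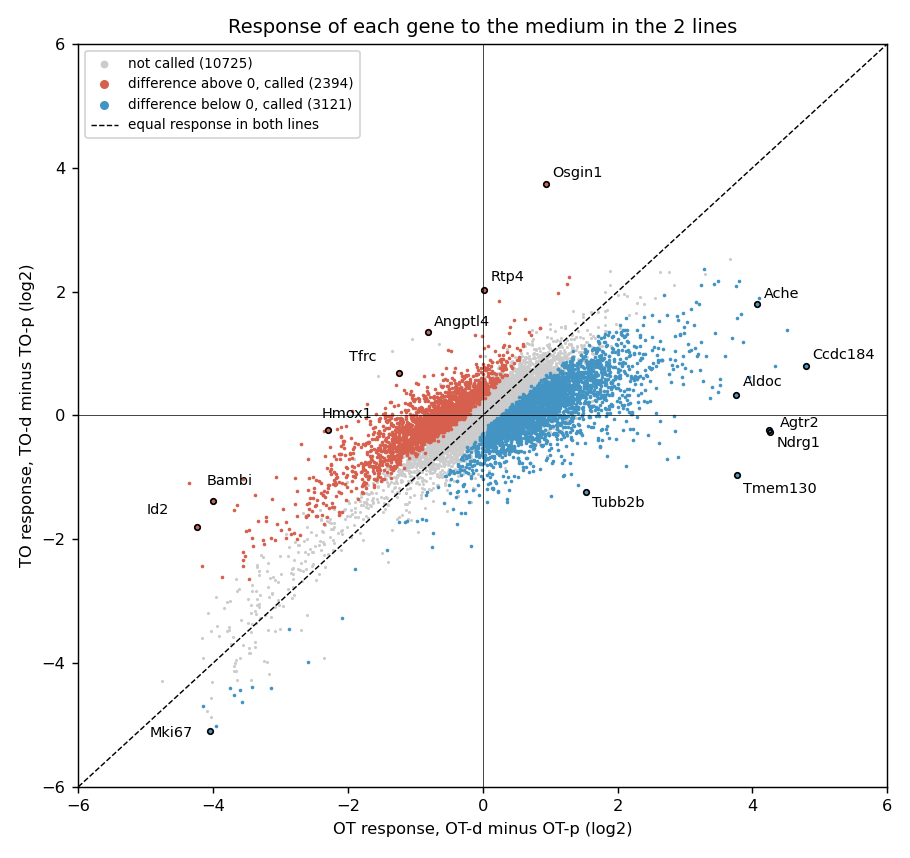
Fitted TO response (vertical) against fitted OT response (horizontal), both in log2 units, with 1 point per gene tested. Red points are the 2394 genes called higher and blue points the 3121 called lower, the dashed line marks equal responses, and the cloud is wider along the OT axis than along the TO axis.

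Genes of the oxidative stress response held the largest difference in the higher direction among genes with a symbol. The transcription factor Nrf2 is released under oxidative or electrophile stress and switches on enzymes of glutathione synthesis, haem breakdown and quinone reduction. The samples had Osgin1 at 12.07, 12.15, 12.50 and 12.13 in TO-d and 7.89, 8.56, 8.40 and 8.81 in TO-p, against 9.09, 8.87, 8.83 and 9.04 in OT-d and 8.05, 7.92, 8.07 and 7.99 in OT-p. Osgin1, an Nrf2-responsive inhibitor of growth, was highest in TO-d, which did not overlap the other 3 groups, and WT-d was at 11.44 ± 0.089 (SD). Fitted with limma, Osgin1 differed by 2.81 ± 0.18 (adjusted p = 6.13e-09), and by 2.90 without replicate 4. Its probe lies at chr8:122332154-122332213 (mm8), and its 3 probes gave 0.88 to 2.81. Hmox1, the haem oxygenase that opens the haem ring, differed in another way. For Hmox1 the levels were 11.61, 11.67, 11.52 and 11.64 in TO-d and 12.40, 12.06, 12.09 and 10.79 in TO-p, against 9.87, 10.24, 9.70 and 10.00 in OT-d and 12.26, 12.26, 12.35 and 12.29 in OT-p. In OT-d it was lower than in every sample of the other 3 groups. The fitted responses were -0.24 in TO, or -0.56 without replicate 4, and -2.29 in OT. The difference for Hmox1 was 2.05 ± 0.29 (limma adjusted p = 1.76e-05) and without replicate 4 it was 1.78. Nqo1, a quinone reductase, had responses of opposite sign, 0.63 in TO and -0.88 in OT, and the TO response was 0.28 without replicate 4. Fitted with limma, Nqo1 differed by 1.51 ± 0.31 (adjusted p = 0.000648), and by 1.21 without replicate 4. Gclc, the catalytic subunit of glutathione synthesis, likewise went up by 0.65 in TO and had -0.73 in OT. Gclc had a difference of 1.38 ± 0.17 (limma adjusted p = 5.02e-06), and 1.45 without replicate 4. Of the 38 Nrf2 and antioxidant genes tested, 17 were higher and 5 lower, with a median of 0.33, and 22 and 6 without replicate 4. Among all genes 14.7% were higher and 19.2% lower.

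The stress element TGATGNAA, which ATF4 and CHOP bind, and the antioxidant element TGACNNNGC, which Nrf2 binds, were searched on both strands of the RefSeq promoters (GRCm38.p6, 250 bases before to 50 after the start of each gene), which 10969 of the genes tested had. The windows below end at or before the start of the gene and show, for each list, the called genes with the largest differences that hold the letters there. Capitals mark the element, or its reverse complement where it lies on the other strand.
Slc7a11, chr3:50443614-50443713, minus strand: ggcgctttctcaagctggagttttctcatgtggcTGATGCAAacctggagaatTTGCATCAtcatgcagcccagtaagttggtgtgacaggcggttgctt
Chac1, chr2:119351003-119351102, plus strand: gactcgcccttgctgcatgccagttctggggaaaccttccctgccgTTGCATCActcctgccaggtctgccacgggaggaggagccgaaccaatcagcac
Gclm, chr3:122245378-122245477, plus strand: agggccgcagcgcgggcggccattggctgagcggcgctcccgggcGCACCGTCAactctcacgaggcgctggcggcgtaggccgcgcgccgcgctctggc
G6pdx, chrX:74428883-74428982, minus strand: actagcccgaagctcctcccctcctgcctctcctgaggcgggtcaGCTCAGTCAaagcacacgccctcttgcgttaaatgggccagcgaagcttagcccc
These genes were taken by that rule and not by the rule for named genes. Slc7a11, the cystine importer, carried 2 copies of the stress element in this window. It was not well above background in OT-d, so its level there is poorly measured. Slc7a11 had a fitted difference of 0.91 (limma adjusted p = 0.000438), and 0.76 without replicate 4. Gclm, the modifier subunit of glutathione synthesis, had a difference of 1.29 ± 0.14 (adjusted p = 7.29e-07), and 1.25 without replicate 4. G6pdx, which supplies NADPH, had a difference of 1.15 ± 0.19 (adjusted p = 8.21e-05), and 1.05 without replicate 4. Chac1, which degrades glutathione, had a difference of 0.81 ± 0.21 (adjusted p = 0.00401), and 0.87 without replicate 4. The stress element was in 9 of 27 promoters of the integrated stress response list (33.3%) and in 5 of its 12 higher members, while 2.4% of all promoters and 2.4% of those of all higher genes held it. The antioxidant element was in 9 of 32 promoters of the Nrf2 list (28.1%), in 15.2% of those of all higher genes and in 14.6% of all promoters. Over all higher genes, then, both shares were close to those of all promoters.

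Genes of amino acid supply were called higher in a larger share than all genes. The integrated stress response slows translation through eIF2 phosphorylation and raises ATF4, which drives amino acid import, serine synthesis, mitochondrial folate enzymes and tRNA synthetases. Of 31 members tested, 14 were higher and 2 lower, against 14.7% and 19.2% of all genes, with a median of 0.44 (0.24 without replicate 4, with the same counts). Mthfd2 levels by sample were 11.50, 11.64, 11.38 and 11.56 in TO-d and 12.49, 12.36, 12.02 and 11.18 in TO-p, against 10.30, 10.63, 10.33 and 10.42 in OT-d and 12.52, 12.67, 12.46 and 12.58 in OT-p. Mthfd2, the mitochondrial folate dehydrogenase, was lowest in OT-d, which overlapped WT-d (10.69 ± 0.128, SD) and none of the other 3 groups, and TO-p replicate 4 lay below the other TO-p samples. Fitted with limma, Mthfd2 differed by 1.62 ± 0.24 (adjusted p = 2.55e-05), and by 1.41 without replicate 4. By sample, Psat1 measured 12.49, 12.61, 12.56 and 12.59 in TO-d and 13.73, 13.69, 13.75 and 13.58 in TO-p, against 11.65, 11.88, 11.61 and 11.46 in OT-d and 13.70, 13.81, 13.88 and 13.93 in OT-p. Psat1, of serine synthesis, was lower in both differentiated groups, and more so in OT-d. The difference for Psat1 was 1.11 ± 0.13 (limma adjusted p = 2.6e-06) and without replicate 4 it was 1.08. Sesn2, a stress-induced inhibitor of mTORC1, had responses of 0.43 in TO and -0.71 in OT. Fitted with limma, Sesn2 differed by 1.14 ± 0.16 (adjusted p = 1.54e-05), and by 1.07 without replicate 4. The 2 Sesn2 probes gave 0.29 and 1.14. The bZIP factor gene Ddit3 (CHOP), read out in any case, was not called. Ddit3 had a difference of 0.13 ± 0.23 (limma adjusted p = 0.711), and -0.02 without replicate 4 (adjusted p = 0.954).

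In serine, folate and methionine metabolism 19 of 37 genes were higher and none lower (median 0.60), and 2 were lower without replicate 4. The shares of all genes were 14.7% higher and 19.2% lower. In the order of replicates, Mthfd1 was at 11.61, 11.67, 11.78 and 11.69 in TO-d and 12.05, 12.01, 12.10 and 11.31 in TO-p, against 10.45, 10.74, 10.43 and 10.74 in OT-d and 12.76, 12.71, 12.66 and 12.78 in OT-p. Mthfd1, the cytosolic enzyme that interconverts folate one-carbon units, was lowest in OT-d and highest in OT-p. Its TO-d samples lay above TO-p replicate 4 and below the other TO-p samples. The fitted TO response was -0.18, and -0.38 without replicate 4. Fitted with limma, Mthfd1 differed by 1.92 ± 0.21 (adjusted p = 8.12e-07), and by 1.75 without replicate 4. Aldh1l2 had a difference of 1.60 ± 0.40 (limma adjusted p = 0.0037), and 1.20 without replicate 4. Aldh1l2 oxidizes formyl-folate in mitochondria, and all its TO-p samples lay above OT-d. They fell on both sides of TO-d and OT-p, since replicate 4 was at 9.03 and the other 3 samples at 10.92 to 11.21. The difference for Shmt1 was 1.55 ± 0.29 (limma adjusted p = 0.000292) and without replicate 4 it was 1.32. Shmt1 is the cytosolic enzyme that splits serine into glycine and a folate one-carbon unit. Of 22 aminoacyl-tRNA synthetases, which load tRNAs with amino acids, 13 were higher and 1 lower (median 0.58). Fitted with limma, Aars differed by 0.94 ± 0.22 (adjusted p = 0.00243), and by 1.09 without replicate 4. Rars had a difference of 0.98 ± 0.17 (limma adjusted p = 0.000123), and 0.87 without replicate 4. Aars charges alanine and Rars arginine, and the Rars responses had opposite signs, 0.30 in TO and -0.67 in OT, with 0.18 in TO without replicate 4.

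Chaperone counts stood against 14.7% higher and 19.2% lower among all genes. Of 34 genes of the unfolded protein response and the ER chaperones, 9 were higher and 2 lower (median 0.13), and of 26 heat shock and cytosolic chaperone genes 9 were higher and 1 lower (median 0.19). The difference for Dnajc3 was 1.31 ± 0.19 (limma adjusted p = 1.99e-05) and without replicate 4 it was 1.26. Dnajc3 restrains the kinase PERK. Hspa5 was at 15.31, 15.36, 15.04 and 15.36 in TO-d and 14.79, 14.71, 14.91 and 14.93 in TO-p, against 14.78, 14.32, 14.63 and 14.74 in OT-d and 14.64, 14.72, 14.56 and 14.65 in OT-p. Hspa5 (BiP), the main ER chaperone, was above the other 3 groups in TO-d, and the other groups overlapped. Hspa5 had a difference of 0.47 ± 0.15 (limma adjusted p = 0.0153), and 0.52 without replicate 4. It no longer passed on leaving out TO-p replicate 2 or TO-d replicate 4 (adjusted p up to 0.0561 over the samples left out). Of the proteasome subunits, 9 of 35 were higher and 1 lower, with a median of 0.20, and 13 were higher without replicate 4.

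Targets of BMP signalling were among the genes with the largest differences. BMP ligands act through SMAD proteins to induce the Id genes, which block the bHLH factors of differentiation, and feedback inhibitors of the same pathway. The samples had Bambi at 8.61, 8.68, 8.93 and 8.69 in TO-d and 10.49, 10.24, 10.34 and 9.41 in TO-p, against 8.99, 9.19, 9.27 and 9.28 in OT-d and 13.28, 13.21, 13.16 and 13.23 in OT-p. Bambi, a decoy receptor of the pathway, was highest in OT-p, which overlapped none of the other 3 groups, and WT-p was at 11.34 ± 0.571 (SD). Fitted with limma, Bambi differed by 2.61 ± 0.31 (adjusted p = 2.02e-06), and by 2.42 without replicate 4. For Id2 the levels were 9.18, 9.17, 9.19 and 9.21 in TO-d and 10.89, 11.31, 11.42 and 10.15 in TO-p, against 9.24, 9.67, 9.56 and 9.53 in OT-d and 13.97, 13.83, 13.78 and 13.67 in OT-p. Id2 had the same order of groups, with OT-p highest and both differentiated groups low. The difference for Id2 was 2.44 ± 0.35 (limma adjusted p = 2.07e-05) and without replicate 4 it was 2.21. Fitted with limma, Id3 differed by 2.16 ± 0.48 (adjusted p = 0.00137), and by 1.89 without replicate 4. Id3, a further Id protein, fell in both lines and by more in OT. Fst levels by sample were 8.41, 8.14, 8.02 and 8.17 in TO-d and 9.80, 9.85, 9.27 and 7.77 in TO-p, against 7.25, 7.67, 7.13 and 8.12 in OT-d and 11.53, 11.44, 11.21 and 11.09 in OT-p. Fst (follistatin), which binds activin and BMP ligands, was likewise highest in OT-p, and TO-p replicate 4 was the lowest TO-p sample. The difference for Fst was 2.54 ± 0.50 (limma adjusted p = 0.000527) and without replicate 4 it was 2.17. Fitted with limma, Bmper differed by 1.93 ± 0.28 (adjusted p = 2.33e-05), and by 1.68 without replicate 4. Bmper is a secreted BMP-binding protein. Smad6 had a difference of 1.31 ± 0.26 (limma adjusted p = 0.000494), and 1.09 without replicate 4. Smad6 is an inhibitory SMAD, and TO-p replicate 4 was at 6.94 against 7.98 to 8.06 in the other TO-p samples. Of the 30 genes of the list of Id proteins and BMP, TGF-beta and Wnt readout, 10 were higher and 4 lower, with a median of 0.11. All genes had 14.7% higher and 19.2% lower. Fst and Bmper are not on this list and were named for the size of their difference.

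**Figure D3:**
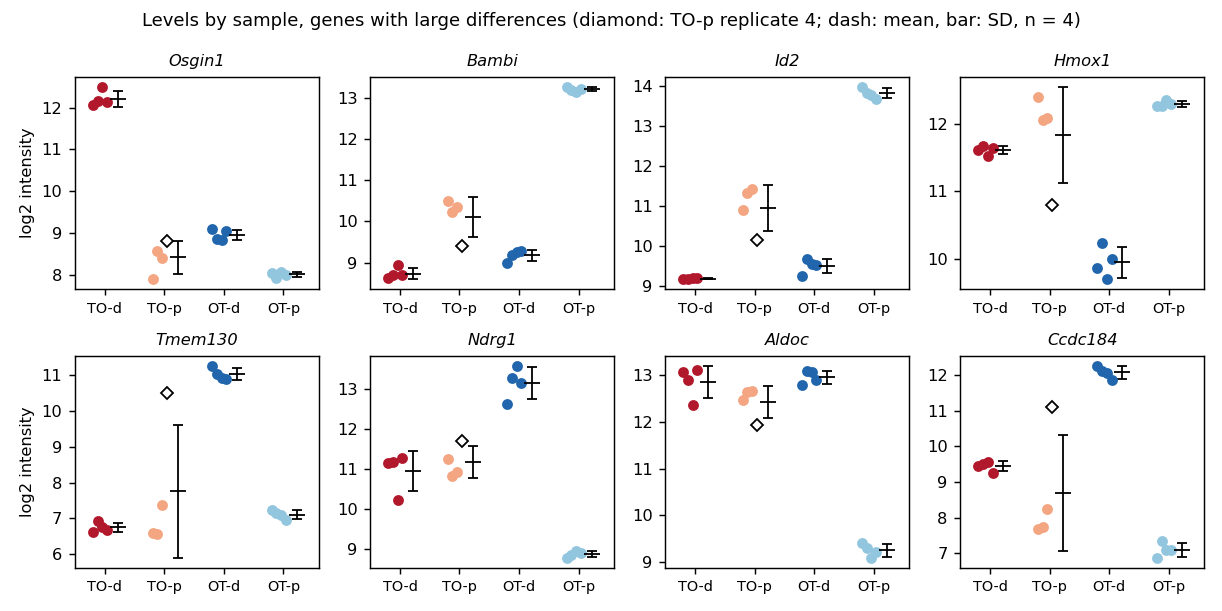
Normalized log2 intensity in each sample for 8 genes with large differences, in the groups TO-d, TO-p, OT-d and OT-p. Circles are samples, the open diamond is TO-p replicate 4, and the dash and bar beside them are the mean and SD of 4 samples. Among these groups TO-d stands alone for Osgin1, OT-p for Bambi, Id2 and Aldoc, and OT-d for Hmox1.

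Genes of DNA replication and G1/S were higher at 28 of 54 and lower at 1 (median 0.54), against 14.7% and 19.2% of all genes, and at 31 and 2 without replicate 4. They fell in both lines in differentiation medium, with median responses of -1.76 in TO and -2.42 in OT. By sample, Cdc6 measured 6.72, 6.76, 6.89 and 6.97 in TO-d and 9.07, 9.08, 8.79 and 7.69 in TO-p, against 6.79, 7.54, 6.83 and 7.58 in OT-d and 11.00, 10.92, 10.87 and 10.72 in OT-p. Cdc6, which loads the replicative helicase, was close in TO-d and OT-d and differed in the proliferating groups. Its levels in TO-d and OT-d were dim, though well above background in every sample, so their closeness is poorly measured. Fitted with limma, Cdc6 differed by 1.64 ± 0.40 (adjusted p = 0.00305), and by 1.35 without replicate 4. In the order of replicates, Pola1 was at 9.01, 8.84, 8.86 and 8.93 in TO-d and 11.43, 11.25, 11.41 and 9.40 in TO-p, against 8.49, 8.87, 8.36 and 8.73 in OT-d and 12.26, 12.19, 11.94 and 12.05 in OT-p. Pola1, the catalytic subunit of the primase-polymerase, showed the same layout, with TO-p replicate 4 nearer to the differentiated groups. The difference for Pola1 was 1.45 ± 0.40 (limma adjusted p = 0.00789) and without replicate 4 it was 1.05. The call of Pola1 was lost when the samples with the letter b were left out. Fitted with limma, Ung differed by 1.85 ± 0.18 (adjusted p = 2.5e-07), and by 1.78 without replicate 4. Ung removes uracil from DNA. Gins3, a subunit of the replicative helicase, had a difference of 1.62 ± 0.27 (adjusted p = 8.58e-05, and 1.43 without replicate 4). Uhrf1, which keeps DNA methylation through replication, had a difference of 1.35 ± 0.31 (adjusted p = 0.00173, and 1.06 without replicate 4). Hells, a remodelling helicase of DNA methylation, had a difference of 2.10 ± 0.37 (adjusted p = 0.000177, and 1.81 without replicate 4). Cenpq, a kinetochore protein, had a difference of 2.07 ± 0.41 (adjusted p = 0.000566, and 1.65 without replicate 4), and its TO-p replicate 4 was at 8.87 against 10.81 to 11.09 in the other TO-p samples. Hells and Cenpq are not on the replication list and were named for the size of their difference.

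Genes of mitosis and G2/M were lower at 9 of 50 and higher at 2, near the 19.2% of all genes that were lower, with a median of -0.05. Without replicate 4 the counts were 20 lower and 3 higher and the median was -0.28, so that the count for this list depended on that sample, and 5 were lower without OT-d replicate 2 or TO-p replicate 2. Mki67 was at 7.72, 7.62, 8.11 and 7.51 in TO-d and 13.11, 12.87, 13.11 and 11.89 in TO-p, against 9.03, 9.59, 9.26 and 9.16 in OT-d and 13.35, 13.33, 13.45 and 13.29 in OT-p. Mki67, a proliferation marker, had TO-d below OT-d with no overlap, and TO-p replicate 4 was the lowest proliferating sample. The difference for Mki67 was -1.05 ± 0.36 (limma adjusted p = 0.0294) and without replicate 4 it was -1.32. The other Mki67 probe gave a difference of 0.04, and the median over the probes did not pass (adjusted p = 0.414). The samples had Birc5 at 9.89, 9.79, 9.91 and 9.22 in TO-d and 14.55, 14.27, 14.64 and 15.38 in TO-p, against 11.02, 11.48, 11.10 and 10.98 in OT-d and 15.25, 15.10, 14.89 and 14.99 in OT-p. Birc5 (survivin), of the chromosomal passenger complex, had TO-d below OT-d as well. Birc5 had a difference of -1.06 ± 0.24 (limma adjusted p = 0.00189), and -0.90 without replicate 4. The difference for Ccnb2 was -1.38 ± 0.49 (limma adjusted p = 0.0347) and without replicate 4 it was -1.60. Ccnb2 is a mitotic cyclin. The calls of Mki67 and Ccnb2 were fragile, since each was lost on leaving out any of 8 single samples (adjusted p up to 0.081 and 0.08). The neuroblastoma oncogene Mycn had responses of -0.62 in TO and 0.79 in OT. Fitted with limma, Mycn differed by -1.42 ± 0.18 (adjusted p = 5.51e-06), and by -1.51 without replicate 4.

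Genes of nuclear RNA handling were higher in larger shares than the 14.7% of all genes. Of 73 genes of mRNA export, the nuclear pore and karyopherins, 35 were higher and none lower (median 0.43), and 38 higher without replicate 4. For Nup153 the levels were 10.85, 10.63, 10.83 and 10.88 in TO-d and 11.13, 10.84, 11.34 and 10.12 in TO-p, against 9.84, 9.80, 9.91 and 9.94 in OT-d and 11.23, 11.22, 11.28 and 11.28 in OT-p. Nup153, a nucleoporin of the pore basket, was lowest in OT-d, and its TO-d samples lay between OT-d and OT-p. The difference for Nup153 was 1.32 ± 0.23 (limma adjusted p = 0.000201) and without replicate 4 it was 1.10. Ndc1, which anchors the pore in the membrane, had a difference of 1.77 ± 0.32 (adjusted p = 0.000242, and 1.47 without replicate 4). Among 55 hnRNP and SR splicing factors 21 were higher and 3 lower (median 0.27). Fitted with limma, Pspc1 differed by 1.65 ± 0.21 (adjusted p = 4.67e-06), and by 1.48 without replicate 4. Pspc1 belongs to the paraspeckles. Cirbp had a difference of -1.29 ± 0.21 (limma adjusted p = 7.6e-05), and -1.16 without replicate 4. Cirbp, a cold-inducible RNA-binding protein, was thus one of the 3 members of this list in the lower direction. Elavl1 (HuR), which stabilizes mRNAs, was not called with replicate 4 and passed without it. The difference for Elavl1 was -0.32 ± 0.14 (limma adjusted p = 0.0867) and without replicate 4 it was -0.37 (adjusted p = 0.0354). Its 3 probes gave -0.32 to 0.91, so no direction holds for the gene.

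Glycolysis and hypoxia genes held a larger share of lower calls than the 19.2% of all genes. HIF1 accumulates when oxygen is low and raises glycolytic enzymes, mitophagy proteins and pyruvate dehydrogenase kinase. Of 41 members 22 were lower and 3 higher, with a median of -0.73 and 24 lower and 2 higher without replicate 4. Ndrg1 levels by sample were 11.14, 11.16, 10.22 and 11.26 in TO-d and 11.25, 10.82, 10.92 and 11.68 in TO-p, against 12.60, 13.26, 13.57 and 13.14 in OT-d and 8.77, 8.86, 8.96 and 8.89 in OT-p. Ndrg1, a hypoxia-inducible regulator of growth, was over 3 log2 units higher in OT-d than in OT-p, and TO-d and TO-p overlapped. Ndrg1 had a difference of -4.53 ± 0.42 (limma adjusted p = 1.68e-07), and -4.42 without replicate 4. The difference is 23.1-fold, and 21.4-fold without replicate 4, and the probe lies at chr15:66759164-66759223 (mm8). By sample, Aldoc measured 13.05, 12.88, 12.35 and 13.11 in TO-d and 12.46, 12.63, 12.65 and 11.92 in TO-p, against 12.78, 13.07, 13.06 and 12.89 in OT-d and 9.41, 9.31, 9.09 and 9.23 in OT-p. Aldoc, the brain form of aldolase, was near 13 in TO-d and OT-d and near 9 only in OT-p. Fitted with limma, Aldoc differed by -3.43 ± 0.51 (adjusted p = 3.31e-05), and by -3.57 without replicate 4. The 2 Aldoc probes gave -3.43 and -0.60, so the size of the difference depends on the probe. In the order of replicates, Bnip3 was at 13.20, 12.97, 12.17 and 13.10 in TO-d and 13.11, 12.23, 11.96 and 12.20 in TO-p, against 13.99, 14.40, 14.28 and 14.27 in OT-d and 10.74, 11.07, 10.90 and 10.86 in OT-p. Bnip3, a receptor of mitophagy, was lowest in OT-p, which overlapped no other group. The difference for Bnip3 was -2.94 ± 0.41 (limma adjusted p = 1.53e-05) and without replicate 4 it was -2.98. Pygl, a glycogen phosphorylase, had a difference of -3.08 ± 0.38 (adjusted p = 3.25e-06, and -3.26 without replicate 4). Pdk1 was at 10.28, 10.06, 9.56 and 10.01 in TO-d and 8.90, 8.05, 8.44 and 10.92 in TO-p, against 11.65, 11.72, 11.71 and 11.57 in OT-d and 8.19, 8.55, 8.32 and 8.39 in OT-p. Pdk1, a pyruvate dehydrogenase kinase, was higher in TO-p replicate 4 than in any other sample of either TO group, and highest in OT-d. Pdk1 had a difference of -2.21 ± 0.54 (limma adjusted p = 0.00313), and -1.72 without replicate 4. Mgarp, a hypoxia-linked mitochondrial protein, had a difference of -3.33 ± 0.33 (adjusted p = 3.98e-07, and -3.33 without replicate 4). Pygl and Mgarp are not on the glycolysis and hypoxia list and were named for the size of their difference.

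The HIF core letters ACGTG were added to the motif search after the differences were seen. They occurred on either strand in 21 of 38 promoters of the glycolysis and hypoxia list (55.3%) and in 11 of its 19 lower members, in 23.3% of the promoters of all lower genes and in 24.7% of all promoters. The share over all lower genes was thus slightly under that of all promoters. The windows were chosen as above and show the 2 called members with the largest differences that hold the letters before the start. In Bnip3 the letters of both strands overlap in the palindrome CACGTG.
Bnip3, chr7:138909561-138909660, minus strand: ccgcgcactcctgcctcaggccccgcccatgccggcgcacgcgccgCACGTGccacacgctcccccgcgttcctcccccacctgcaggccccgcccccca
Ankrd37, chr8:45999851-45999950, minus strand: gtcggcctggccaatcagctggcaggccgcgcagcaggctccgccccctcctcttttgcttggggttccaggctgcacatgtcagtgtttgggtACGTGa
Ankrd37, an ankyrin repeat protein known as a HIF target, was named by that rule and had a difference of -1.80 ± 0.38 (adjusted p = 0.00105), and -1.63 without replicate 4. Of the other motifs searched, the E2F letters TTCCCGCC were in 6.06% of the promoters of higher genes, 3.19% of those of lower genes and 3.91% of all promoters. The cell cycle homology letters TTTGAA were in 30 of 42 promoters of the mitosis list (71.4%), against 12.2% of all promoters. The CCAAT letters were in 33 of those 42 (78.6%), against 39% of all promoters. Oxidative phosphorylation, in contrast to glycolysis, had 8 of 54 members higher, none lower and a median of 0.07. The share of higher members was near the 14.7% of all genes, and 19.2% of all genes were lower. The counts were 12 higher and 1 lower without replicate 4. The higher count was 5 without TO-p replicate 2 and 4 without OT-d replicate 4.

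**Figure D4:**
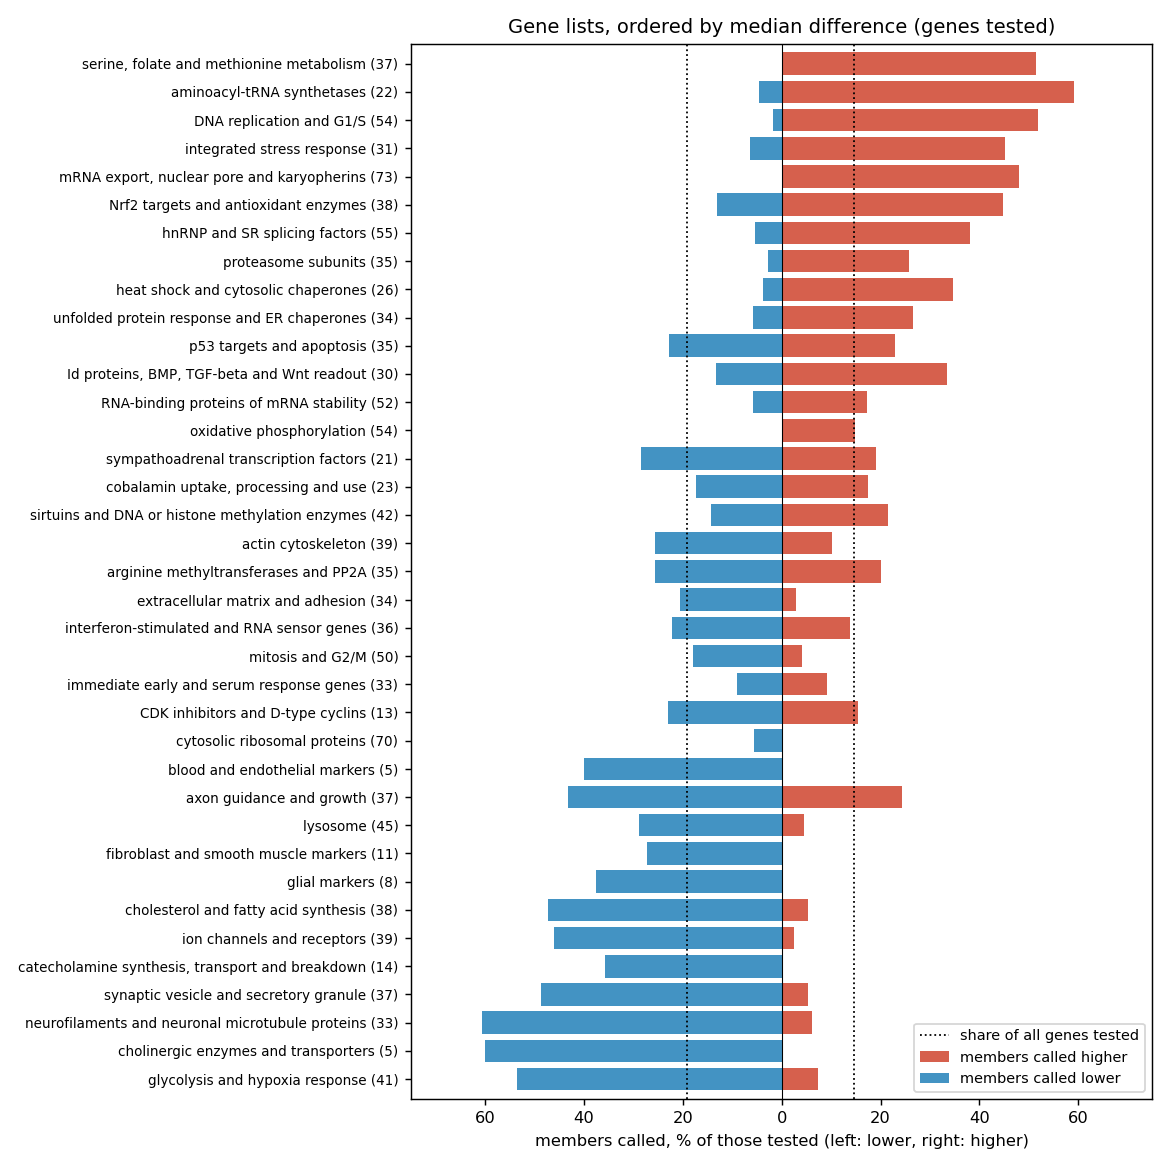
Share of the tested members of each gene list that were called higher (right) and lower (left), with the number tested in brackets and the lists in the order of their median difference. The dotted lines are the shares of all genes tested, 14.7% higher and 19.2% lower. Lists of one-carbon metabolism, tRNA synthetases, DNA replication and mRNA export reach furthest to the right, and glycolysis, cholinergic and neuronal lists furthest to the left.

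Several lists of neuronal genes held larger shares of lower members than the 19.2% of all genes. Neurofilaments and neuronal microtubule proteins build the axon, and 20 of 33 members were lower and 2 higher, with a median of -0.65. The median response of this list was 0.02 in TO and 0.64 in OT. The samples had Stmn2 at 11.03, 11.16, 10.94 and 11.06 in TO-d and 10.76, 10.82, 10.52 and 10.99 in TO-p, against 11.30, 11.51, 11.22 and 11.57 in OT-d and 9.51, 9.70, 9.60 and 9.58 in OT-p. Stmn2, a growth cone regulator of microtubules, was below 10 only in OT-p. Fitted with limma, Stmn2 differed by -1.57 ± 0.14 (adjusted p = 1.12e-07), and by -1.51 without replicate 4. Eno2 had a difference of -2.09 ± 0.38 (limma adjusted p = 0.000261), and -2.16 without replicate 4. Eno2 is the neuronal enolase. For Tubb2b the levels were 10.98, 12.17, 11.90 and 12.42 in TO-d and 12.90, 13.07, 13.45 and 12.96 in TO-p, against 13.31, 13.12, 12.74 and 13.21 in OT-d and 11.34, 11.80, 11.46 and 11.71 in OT-p. Tubb2b, a beta-tubulin of young neurons, had responses of opposite sign, -1.24 in TO and 1.53 in OT. Fitted with limma, Tubb2b differed by -2.76 ± 0.34 (adjusted p = 4.03e-06), and by -2.81 without replicate 4. Kif21b, a kinesin, was 1 of the 2 members in the higher direction. Kif21b had a difference of 1.43 ± 0.15 (limma adjusted p = 6.5e-07). Its spot was left out in TO-p replicate 4, so n was 3 in TO-p and the sample bears on neither fit. Its 3 probes gave -0.03 to 1.43, and the median over probes did not pass (adjusted p = 0.318).

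Synaptic vesicle and secretory granule genes were lower at 18 of 37 and higher at 2 (median -0.52), and at 21 and 2 without replicate 4. Among all genes 19.2% were lower and 14.7% higher. Scg2 levels by sample were 13.13, 13.16, 13.26 and 13.21 in TO-d and 12.72, 12.75, 12.35 and 12.44 in TO-p, against 13.82, 14.22, 14.14 and 14.27 in OT-d and 12.08, 12.27, 12.27 and 12.12 in OT-p. Scg2, a granin of dense-core vesicles, was highest in OT-d, above all TO-d samples. The difference for Scg2 was -1.38 ± 0.13 (limma adjusted p = 2.53e-07) and without replicate 4 it was -1.42. Scg5, a chaperone of prohormone convertase, had a difference of -1.31 ± 0.20 (adjusted p = 4.01e-05, and -1.40 without replicate 4), and Cpe, a peptide-processing carboxypeptidase, had a difference of -1.54 ± 0.16 (adjusted p = 7.18e-07, and -1.58 without replicate 4). Ion channels and receptors were lower at 18 of 39 and higher at 1 (median -0.40). Fitted with limma, Chrna5 differed by -1.19 ± 0.20 (adjusted p = 8.84e-05), and by -1.07 without replicate 4. Chrna5 is a nicotinic receptor subunit. By sample, Agtr2 measured 7.58, 7.74, 7.55 and 7.53 in TO-d and 6.37, 6.53, 8.12 and 10.83 in TO-p, against 11.65, 11.57, 11.30 and 11.42 in OT-d and 6.28, 7.85, 6.61 and 6.77 in OT-p. Agtr2, the type 2 angiotensin receptor, was over 11 in all OT-d samples, and TO-p replicate 4 was the next highest. The difference for Agtr2 was -4.49 ± 0.84 (limma adjusted p = 0.000321) and without replicate 4 it was -3.75. It was well above background in 2 of 4 TO-p and 1 of 4 OT-p samples, so its levels there are poorly measured.

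Of 14 genes of catecholamine synthesis, transport and breakdown, 5 were lower and none higher (median -0.42), against 19.2% and 14.7% of all genes, and 7 were lower without replicate 4. In the order of replicates, Th was at 12.23, 12.35, 12.17 and 12.32 in TO-d and 11.99, 12.01, 11.83 and 11.95 in TO-p, against 12.72, 13.02, 12.94 and 12.95 in OT-d and 11.69, 11.84, 11.83 and 11.76 in OT-p. Th, tyrosine hydroxylase, was highest in OT-d and did not overlap between any of TO-d, OT-d and the proliferating groups. Th had a difference of -0.82 ± 0.12 (limma adjusted p = 3.62e-05), and -0.83 without replicate 4. The difference for Cyb561 was -2.15 ± 0.17 (limma adjusted p = 1.77e-08) and without replicate 4 it was -2.21. Cyb561 supplies electrons for noradrenaline synthesis in the granule. Fitted with limma, Slc18a2 differed by -1.48 ± 0.26 (adjusted p = 0.000165), and by -1.26 without replicate 4. Slc18a2 loads monoamines into vesicles. Dbh, which makes noradrenaline, had a difference of -0.81 ± 0.16 (adjusted p = 0.000543, and -0.82 without replicate 4). Of 5 cholinergic genes 3 were lower and none higher. Ache was at 11.12, 11.16, 11.06 and 11.03 in TO-d and 8.60, 8.73, 8.90 and 10.89 in TO-p, against 11.54, 11.64, 11.80 and 11.71 in OT-d and 7.69, 7.86, 7.31 and 7.21 in OT-p. Ache, acetylcholinesterase, was near 11 in both differentiated groups and low in both proliferating groups but for TO-p replicate 4. The difference for Ache was -2.28 ± 0.45 (limma adjusted p = 0.000542) and without replicate 4 it was -1.86. Among 21 sympathoadrenal transcription factors, 6 were lower and 4 higher (median 0.06). The samples had Phox2a at 11.62, 11.58, 11.44 and 11.64 in TO-d and 12.24, 11.92, 12.03 and 12.01 in TO-p, against 12.56, 12.92, 12.98 and 12.87 in OT-d and 12.05, 12.05, 12.05 and 12.14 in OT-p. Phox2a, a determinant of the noradrenergic fate, went opposite ways, with responses of -0.48 in TO and 0.75 in OT. Phox2a had a difference of -1.23 ± 0.13 (limma adjusted p = 4.59e-07), and -1.26 without replicate 4. The difference for Lmo4 was 1.47 ± 0.31 (limma adjusted p = 0.000968) and without replicate 4 it was 1.41. Lmo4, a LIM-domain cofactor, was in the other direction. Axon guidance genes were mixed, with 16 of 37 lower and 9 higher. Fitted with limma, Unc5b differed by 1.50 ± 0.19 (adjusted p = 4.28e-06), and by 1.46 without replicate 4. Nrp2 had a difference of 1.38 ± 0.13 (limma adjusted p = 1.34e-07), and 1.43 without replicate 4. Unc5b is a netrin receptor and Nrp2 a semaphorin receptor, and both were higher. Of the 14 neuroblast markers 7 were lower and 1 higher, with and without replicate 4.

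Lipid and lysosome lists held lower members in larger shares than the 19.2% of all genes. Of 38 cholesterol and fatty acid synthesis genes, 18 were lower and 2 higher (median -0.38). For Tm7sf2 the levels were 12.22, 12.14, 11.87 and 12.03 in TO-d and 11.75, 11.86, 12.11 and 11.27 in TO-p, against 11.29, 11.53, 11.47 and 11.35 in OT-d and 8.96, 8.96, 8.93 and 9.00 in OT-p. Tm7sf2, a sterol reductase, was near 9 only in OT-p and above 11 in all other samples. Fitted with limma, Tm7sf2 differed by -2.24 ± 0.34 (adjusted p = 3.92e-05), and by -2.38 without replicate 4. Acss2, which makes acetyl-CoA from acetate, had responses of -0.56 in TO and 1.11 in OT. Acss2 had a difference of -1.67 ± 0.30 (limma adjusted p = 0.000216), and -1.84 without replicate 4. Dhcr7, of the last step of cholesterol synthesis, had a difference of -1.21 ± 0.16 (adjusted p = 9.9e-06, and -1.26 without replicate 4). Of 45 lysosomal genes 13 were lower and 2 higher (median -0.20). Neu1, the lysosomal sialidase, had a difference of -1.03 ± 0.15 (adjusted p = 3.02e-05, and -1.11 without replicate 4).

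Of 23 genes of cobalamin handling, the pathway of the fusions, 4 were higher and 4 lower, shares near the 14.7% and 19.2% of all genes, with a median of 0.04. Tcn2 levels by sample were 9.60, 9.68, 9.81 and 9.52 in TO-d and 9.06, 9.18, 9.11 and 9.16 in TO-p, against 9.12, 9.22, 9.19 and 9.25 in OT-d and 7.73, 7.75, 7.86 and 7.70 in OT-p. Tcn2, which encodes transcobalamin, was lower in OT-p than in the other 3 groups, with WT-p at 8.08 ± 0.200 (SD), and its 2 responses both passed with a larger one in OT. Fitted with limma, Tcn2 differed by -0.95 ± 0.13 (adjusted p = 1.58e-05), and by -0.95 without replicate 4. Whether its probe also reads the transcript of the fusion is not known from the labels. By sample, Mtr measured 8.31, 8.27, 8.37 and 8.66 in TO-d and 9.18, 9.31, 9.13 and 7.93 in TO-p, against 7.50, 7.85, 7.92 and 7.88 in OT-d and 9.40, 9.40, 9.33 and 9.41 in OT-p. Mtr, methionine synthase, was lowest in OT-d, and TO-p replicate 4 lay next to the OT-d samples and below the other TO-p samples. The difference for Mtr was 1.01 ± 0.30 (limma adjusted p = 0.0106) and without replicate 4 it was 0.74. The call of Mtr was lost when the samples with the letter b were left out. Fitted with limma, Lmbrd1 differed by -0.79 ± 0.13 (adjusted p = 9.67e-05), and by -0.80 without replicate 4. Lmbrd1 helps cobalamin leave the lysosome. Mmut had a difference of 0.65 ± 0.14 (limma adjusted p = 0.00138), and 0.53 without replicate 4. Mmut is methylmalonyl-CoA mutase, the other cobalamin-dependent enzyme. The difference for Cd320 was 0.32 ± 0.16 (limma adjusted p = 0.144) and without replicate 4 it was 0.29 (adjusted p = 0.174). Cd320 is the receptor for loaded transcobalamin. Fitted with limma, Mmachc differed by 0.45 ± 0.20 (adjusted p = 0.0934), and by 0.32 without replicate 4 (adjusted p = 0.138). Mmachc trims newly imported cobalamin, and like Cd320 it did not pass in either fit, though it passed without TO-p replicate 3 (adjusted p = 0.0266). The deacetylase gene Sirt1 did not pass but for a fit without TO-p replicate 1 (adjusted p = 0.0333). Sirt1 had a difference of 0.32 ± 0.14 (limma adjusted p = 0.0721), and 0.34 without replicate 4 (adjusted p = 0.0614). The difference for Ppp2ca was 0.37 ± 0.13 (limma adjusted p = 0.0269) and without replicate 4 it was 0.36. Ppp2ca is the catalytic subunit of PP2A, and its call was lost without OT-d replicate 1, OT-d replicate 3 or TO-d replicate 4 (adjusted p up to 0.0657).

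**Figure D5:**
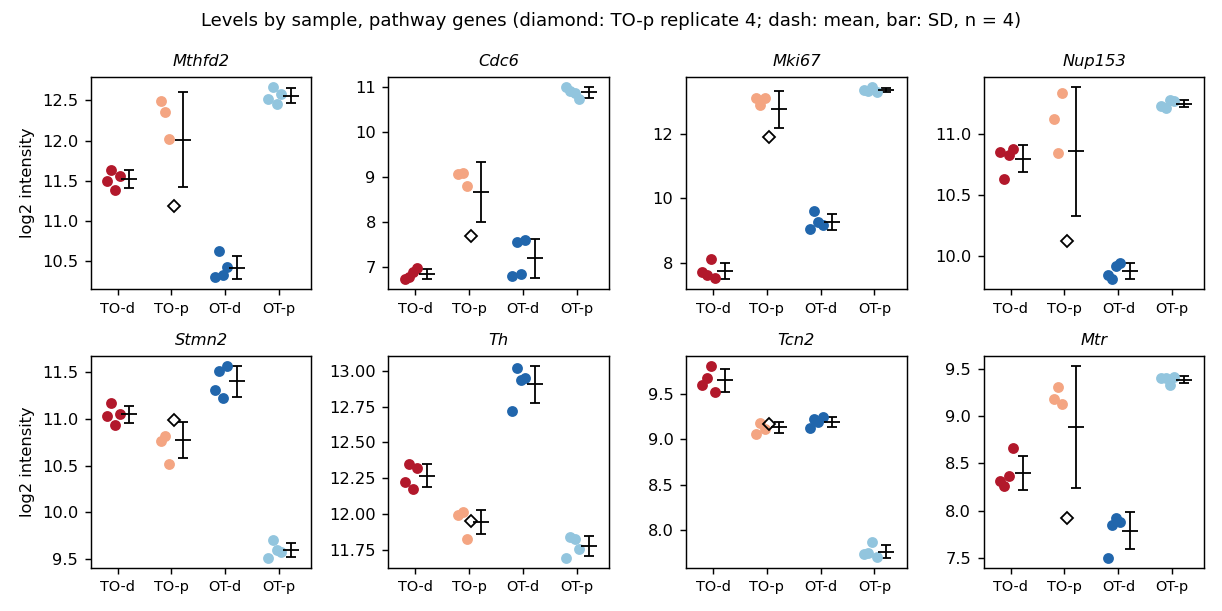
Normalized log2 intensity in each sample for 8 genes of folate metabolism, replication, mitosis, the nuclear pore, neuronal structure, catecholamine synthesis and cobalamin, in the groups TO-d, TO-p, OT-d and OT-p. Circles are samples, the open diamond is TO-p replicate 4, and the dash and bar are the mean and SD of 4 samples. OT-p lies lowest for Stmn2 and Tcn2, and OT-d highest for Th.

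Some of the largest differences lay outside these lists. In the order of replicates, Tmem130 was at 6.62, 6.92, 6.75 and 6.67 in TO-d and 6.58, 6.55, 7.38 and 10.50 in TO-p, against 11.28, 11.05, 10.92 and 10.91 in OT-d and 7.23, 7.14, 7.10 and 6.94 in OT-p. Tmem130, a transmembrane protein, was higher in OT-d and TO-p replicate 4 than in the remaining samples of the 4 groups, and WT-d was at 11.37 ± 0.142 (SD). Tmem130 had a difference of -4.72 ± 0.72 (limma adjusted p = 3.87e-05), and -4.00 without replicate 4. This was the largest difference in the lower direction with all samples, and without replicate 4 that of Ndrg1 was larger. Tmem130 was well above background in 2 of 4 TO-d samples, so its rank rests on dim levels. Ccdc184 was at 9.44, 9.50, 9.57 and 9.25 in TO-d and 7.67, 7.73, 8.24 and 11.11 in TO-p, against 12.27, 12.13, 12.06 and 11.86 in OT-d and 6.86, 7.34, 7.08 and 7.10 in OT-p. Ccdc184, a coiled-coil protein, had OT-d highest and TO-p replicate 4 between TO-d and OT-d. Fitted with limma, Ccdc184 differed by -3.99 ± 0.64 (adjusted p = 6.67e-05), and by -3.36 without replicate 4. The samples had Selenbp1 at 10.74, 10.65, 10.09 and 10.45 in TO-d and 11.46, 10.53, 10.87 and 11.46 in TO-p, against 12.24, 12.59, 12.58 and 12.44 in OT-d and 9.64, 9.58, 9.49 and 9.55 in OT-p. Selenbp1 binds selenium, and its near-identical copy Selenbp2 had a difference of -3.43 ± 0.46 (adjusted p = 8.63e-06, and -3.33 without replicate 4), so the array may not tell the 2 genes apart. The difference for Selenbp1 was -3.57 ± 0.46 (limma adjusted p = 5.74e-06) and without replicate 4 it was -3.49. St3gal1, a sialyltransferase, had a difference of -3.54 ± 0.45 (adjusted p = 5.06e-06, and -3.56 without replicate 4). Adssl1, of the purine nucleotide cycle, had a difference of -3.11 ± 0.36 (adjusted p = 1.63e-06, and -3.18 without replicate 4). Eml2, a microtubule-binding protein, had a difference of -3.03 ± 0.51 (adjusted p = 0.000105, and -3.17 without replicate 4). For Fam183b there was a difference of -3.13 ± 0.64 (adjusted p = 0.000666, and -2.50 without replicate 4). Cibar2 had a difference of -3.07 ± 0.27 (adjusted p = 9.16e-08, and -3.06 without replicate 4).

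In the higher direction, Dusp2, a phosphatase of MAP kinases, had a difference of 2.24 ± 0.26 (adjusted p = 2.15e-06, and 2.21 without replicate 4). For Rtp4 the levels were 10.93, 10.98, 11.06 and 11.10 in TO-d and 9.01, 8.87, 9.43 and 8.71 in TO-p, against 8.97, 8.71, 8.80 and 8.78 in OT-d and 8.74, 8.67, 8.82 and 8.85 in OT-p. Rtp4, an interferon-inducible receptor transporter, was higher in TO-d than in the other 3 groups, and WT-d was at 10.70 ± 0.407 (SD). Rtp4 had a difference of 2.01 ± 0.26 (limma adjusted p = 6.08e-06), and 1.91 without replicate 4. Ada levels by sample were 8.91, 9.17, 9.58 and 9.09 in TO-d and 11.05, 11.06, 11.31 and 8.86 in TO-p, against 8.02, 8.36, 8.25 and 8.30 in OT-d and 11.83, 11.93, 11.95 and 12.01 in OT-p. Ada, adenosine deaminase, was highest in OT-p, and TO-p replicate 4 lay below the other TO-p samples by more than 2 log2 units. Fitted with limma, Ada differed by 2.20 ± 0.47 (adjusted p = 0.00106), and by 1.72 without replicate 4. Trmt61a, a tRNA methyltransferase, had a difference of 2.11 ± 0.30 (adjusted p = 1.74e-05, and 2.01 without replicate 4), and Tatdn2 had a difference of 2.02 ± 0.32 (adjusted p = 5.31e-05, and 1.84 without replicate 4).

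The genes with opposite responses in the 2 lines included regulators of iron, lipid and the actin skeleton. By sample, Angptl4 measured 10.16, 10.34, 10.64 and 9.84 in TO-d and 8.40, 8.44, 8.63 and 10.17 in TO-p, against 10.78, 10.48, 10.15 and 10.43 in OT-d and 11.35, 11.27, 11.04 and 11.04 in OT-p. Angptl4, a secreted inhibitor of lipoprotein lipase, had responses of 1.34 in TO and -0.82 in OT, and TO-p replicate 4 lay with the TO-d samples. The difference for Angptl4 was 2.16 ± 0.42 (limma adjusted p = 0.000464) and without replicate 4 it was 2.51. In the order of replicates, Tfrc was at 9.04, 9.12, 9.18 and 9.09 in TO-d and 8.37, 8.13, 8.19 and 9.18 in TO-p, against 9.36, 9.23, 9.23 and 9.26 in OT-d and 10.52, 10.52, 10.35 and 10.50 in OT-p. Tfrc, the transferrin receptor, had responses of 0.69 in TO and -1.24 in OT. Tfrc had a difference of 1.92 ± 0.26 (limma adjusted p = 9.1e-06), and 2.11 without replicate 4. Tmsb4x was at 7.94, 8.11, 7.81 and 7.95 in TO-d and 8.57, 8.59, 8.58 and 10.75 in TO-p, against 11.66, 11.41, 11.21 and 11.28 in OT-d and 10.08, 9.86, 9.93 and 9.73 in OT-p. Tmsb4x, an actin-sequestering thymosin, had responses of -1.12 in TO and 1.41 in OT, and without replicate 4 the TO response was -0.60. Fitted with limma, Tmsb4x differed by -2.54 ± 0.44 (adjusted p = 0.000141), and by -2.09 without replicate 4. Tafa1, a secreted neurokine, had responses of -0.81 in TO and 2.12 in OT, and the TO response was -0.42 without replicate 4. Tafa1 had a difference of -2.93 ± 0.36 (limma adjusted p = 3.69e-06), and -2.59 without replicate 4. The 3 Tafa1 probes gave -2.93 to -1.16. Pno1, of ribosome assembly, had a difference of 1.59 ± 0.18 (adjusted p = 9.68e-07, and 1.65 without replicate 4), and Gpr155 had a difference of 1.57 ± 0.17 (adjusted p = 6.82e-07, and 1.65 without replicate 4). Col16a1, a collagen, had a difference of -2.17 ± 0.20 (adjusted p = 1.34e-07, and -2.20 without replicate 4).

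The remaining lists gave these counts, against 14.7% higher and 19.2% lower among all genes. The 35 p53 and apoptosis genes had 8 higher and 8 lower, the 33 immediate early genes 3 and 3, and the 36 interferon-stimulated and RNA sensor genes 5 and 8, which single samples moved to as few as 3 and 5. Of 13 CDK inhibitors and D-type cyclins 2 were higher and 3 lower, near the shares of all genes. Of 70 cytosolic ribosomal proteins none was higher and 4 were lower, below the shares of all genes in both directions. The 42 sirtuins and methylation enzymes had 9 higher and 6 lower, the 35 arginine methyltransferase and PP2A genes 7 and 9, and the 52 RNA-binding proteins of mRNA stability 9 and 3, of which 5 were higher without TO-d replicate 4. Actin genes had 4 of 39 higher and 10 lower, and extracellular matrix genes 1 of 34 higher and 7 lower.

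Some markers of other cell types were called too, where 19.2% of all genes were lower and 14.7% higher. Of the 16 glial markers 8 were tested and 3 were lower, of the 16 blood and endothelial markers 5 and 2, and of the 16 fibroblast and smooth muscle markers 11 and 3, and none of them was higher. Without replicate 4 the lower counts were 4, 2 and 5. Intensities of the tested markers were also summed on the linear scale and given as log2 of the sum, so the brightest markers weigh most. These summed levels were 15.43 to 15.49 in TO-d, 15.12 to 15.35 in TO-p, 15.12 to 15.64 in OT-d and 14.88 to 15.04 in OT-p for glia. They were 11.41 to 11.59 in TO-d, 11.31 to 11.83 in TO-p, 12.37 to 12.65 in OT-d and 10.62 to 10.83 in OT-p for blood and endothelium. For fibroblasts and smooth muscle they were 13.65 to 13.73 in TO-d, 13.96 to 14.40 in TO-p, 13.65 to 13.85 in OT-d and 14.02 to 14.05 in OT-p. The defining markers Gfap, Aqp4, Olig2, Ptprc, Csf1r, Pecam1, Cdh5, Col3a1 and Postn were among those too dim to test. Vwf, of endothelium, had a difference of -2.22 ± 0.22 (adjusted p = 2.5e-07, and -2.05 without replicate 4), and Hba-a1, a globin with near-identical copies, had a difference of -1.21 ± 0.13 (adjusted p = 5.62e-07, and -1.27 without replicate 4). Their part in the differences above was not tested.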

How the data were processed

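Per the file headers, each deposited scanner table was written by Agilent Feature Extraction 10.5.1.1 and holds spot intensity for 2 dyes, with local background. The deposited series table, used as an alternative, holds 1 linear intensity per spot and sample, and how the authors scaled it is not given in the sources used here. Each array held 2 samples, each group 2 samples in Cy5 and 2 in Cy3, and 0.2 µg of RNA was labelled per sample. No spot of the 16 samples was saturated, 54.3 to 65.9% were well above background, and 0.148 to 0.583% were marked as outliers and left out.

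Mean signals were corrected by normexp (offset 50), then normalized by loess within and Aquantile between arrays in limma 3.58.1 with statmod 1.5.0 and R 4.3.3, which gave log2 intensity per dye. These log2 values were computed from the deposited intensities. The brightest of a gene's probes stood for it, and a gene was kept if some group of the 6 had it well above background in each of its 4 samples, which held for 16240 of 27597, 13792 of them with a RefSeq symbol. Dyes of an array were fitted as correlated samples (intraspot correlation 0.262) with 6 group means and a dye term. The separate-channel fit that was planned accepts no missing spots, and the block fit used in its place differed from it by at most 3.2e-14 on the 15834 genes with none. Residual and prior degrees of freedom were 17 and 4.38. The statistics were tested on simulated data. The design text calls the samples biological replicates, with no word on separate cultures, so p-values reflect sample-to-sample spread that may be technical.

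The contrast, the 37 gene lists and the rule for named genes were chosen with earlier results of these data known. Named were, among called genes with a symbol, measured above background in each of the 4 groups and of the same sign within slides 2 and 3, the 15 largest per direction, 8 per direction with opposite responses, at most 4 per list, and 10 genes always. The text prints a part of them. The file's probe positions are on mm8. Lists were described by counts and medians, with no test of a list. Samples of different groups with the same replicate number did not deviate together on average (24 pairs, correlations of -0.415 to 0.325, mean -0.011). No pairing by replicate number was thus seen, but correlations spread this widely cannot exclude one. The 4 pairs with a shared number gave -0.170 to 0.291 (mean 0.065). Deviations from a group's own mean tend to cancel within the group, which lowers these values. They cannot tell whether such a pair came from 1 culture. The 4 pairs of different TO and OT groups on 1 array gave 0.056 to 0.651 (mean 0.299). The alternatives tried were other signals, offset, normalization, filters, probe choices and thresholds, no dye term, slide or replicate as a block, each slide alone, fewer samples, and no intraspot correlation.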

Additional observations from a re-analysis of the deposited data

Results flagged for a closer look

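Each named gene was checked for a sample far from the other 3 of its group, by the gap to the nearest sample as a share of the group's range (Dixon's ratio, above its usual critical value for 4 samples). Of 411 groups, 36 held such a sample (8.76%), and chance alone gives about 1 in 20. TO-p replicate 4 was that sample in 19 of them. It was the lowest TO-p sample for Smad6 (0.930), Ada (0.894), Nqo1 (0.885), Mthfd1 (0.897), Aldh1l2 (0.866), Ddit3 (0.838), Cenpq (0.874), Pola1 (0.910), Uhrf1 (0.922), Mycn (0.874), Mtr (0.871) and Mmut (0.841), where the brackets hold the ratio. It was the highest TO-p sample for Angptl4 (0.868), Cirbp (0.830), Ccdc184 (0.834), Fam183b (0.833), Tmsb4x (0.992), Ache (0.870) and Pno1 (0.860), where the brackets hold the ratio. For Tmsb4x the level of TO-p replicate 4 was 10.75 and the other 3 were at 8.57 to 8.59, and for Pola1 it was 9.40 against 11.25 to 11.43.

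The other 17 were spread over 7 samples. OT-d replicate 1 was low for Eml2 (0.841), Dbh (0.904) and Neu1 (0.858). OT-p replicate 2 was high for Fam183b (0.912). OT-p replicate 3 was low for Tfrc (0.899) and Mtr (0.838). OT-p replicate 4 was high for Phox2a (0.963). OT-p replicate 4 was low for Hba-a1 (0.943). TO-d replicate 1 was high for Lmbrd1 (0.873). TO-d replicate 3 was high for Cibar2 (0.909) and Col16a1 (0.870). TO-d replicate 3 was low for Hspa5 (0.833), Cenpq (0.865), Ndrg1 (0.885) and Ankrd37 (0.960). TO-d replicate 4 was low for Birc5 (0.830) and Fam183b (0.849).

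The responses of the 2 lines differed, by the test of the difference itself, at 2394 genes in the higher and 3121 in the lower direction. Both responses passed with opposite signs at 155 of the higher and 238 of the lower genes. Of the genes named, the opposite responses with a difference above 0 were those of Nqo1 (1.51), Gclc (1.38), Sesn2 (1.14), Rars (0.98), Angptl4 (2.16), Tfrc (1.92), Unc5b (1.50), Pno1 (1.59) and Gpr155 (1.57), with the log2 difference in brackets. Those with a difference below 0 were Tubb2b (-2.76), Tmsb4x (-2.54), Tafa1 (-2.93), Phox2a (-1.23), Mycn (-1.42), Acss2 (-1.67), Dhcr7 (-1.21) and Col16a1 (-2.17).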

How the results depend on the processing

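The counts with all samples were 2394 genes higher and 3121 lower, with 155 and 238 whose responses both passed with opposite signs. Loess alone gave 1371 higher and 2058 lower, with 100 and 168 opposite, and moved the median of all genes to -0.13. With every probe tested singly they were 4004 and 4005, with 240 and 291 opposite. With the 3 samples a group left after dropping those with the letter b, they were 1567 and 2205, with 71 and 102 opposite, and averaging samples with a shared number gave 90 and 121 opposite. The opposite lower count was 361 from the Feature Extraction processed signal and 430 from the deposited series table. An adjusted p under 0.01 gave 1516 higher, and a difference over 2-fold 319 and 789, with 35 and 102 opposite. Leaving out single samples gave 2022 to 2652 higher and 2710 to 3692 lower, and 99 to 166 and 156 to 359 opposite. With the replicate block the counts were 2349 and 3102, and the block changed no call of a named gene. The 103 genes checked kept their call in all alternatives but for 14 of them. With the median over its probes Elavl1 turned to 0.82. The calls of Aldh1l2, Cdc6, Mtr, Pola1, Ppp2ca, Slc7a11 and Smad6 were lost with loess alone. The call of Cdc6 was also lost with the Feature Extraction processed signal. The calls of Ccnb2, Hspa5, Mki67, Mtr, Pola1 and Ppp2ca were lost when the samples with the letter b were left out. Averaging samples with a shared number lost the call of Mki67. The cause was not tested in any of these cases. Genes near background, such as Agtr2 and Tmem130, have levels that the signal limits.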
